A study of Mus musculus with 8 samples.

Results

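Pon1, Pon2 and Pon3, the paraoxonase genes of the mouse, were followed through 8 one-colour arrays of embryonic airway tissue. All probe sets annotated to exactly 1 of these symbols were taken, which gave 6 probe sets on the array used for lungs of embryonic stage E18.5, counted in days (1 for Pon1, 4 for Pon2 and 1 for Pon3), and 3 on the array used at E11.5 (1 for each gene). They are 3 of 18193 genes named on the later array and 3 of 8251 on the earlier one. The family was selected on the strong fall of Pon1 between the E18.5 groups, so the E18.5 differences of its members are a description without a test.

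The E18.5 lungs came from FVB/N mouse embryos. Bitransgenic embryos (n = 3) carried both transgenes of an SP-C/MIA system and overexpressed MIA, a small secreted protein known from melanoma cells, and controls (n = 3) carried a single transgene, which the labels do not name. SP-C is surfactant protein C, whose gene is active in distal lung epithelium. The E11.5 samples were 1 lung and 1 trachea, also FVB/N, on an older array type. The labels do not state whether an array held 1 embryo or a pool, or from which litters they came, so p-values measure the spread between these arrays.

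Paraoxonases are calcium-dependent lactonases and esterases that hydrolyse lactones, oxidised lipids and, in the case of PON1, organophosphates such as paraoxon. PON1 is made chiefly in the liver and travels in blood on high-density lipoprotein (HDL). PON3 has also been reported on HDL, though not in every species. PON2 stays inside the cell and is found in many tissues. In the airway the family is known for breaking down the acyl-homoserine lactones with which Pseudomonas aeruginosa signals between cells.

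The 3 genes lie next to one another on chromosome 6, in the order Pon1, Pon3, Pon2 on the GRCm38.p6 assembly, all on the minus strand. Their start regions are shown because neighbouring genes of the family differed so much in signal change between the E18.5 groups. Each window is the RefSeq sequence from 250 bases before to 50 bases after the annotated start, printed in the direction of transcription. Capitals mark matches on either strand to 3 short motifs. The GC box was searched as the letters GGGCGG. The box named after its letters was searched as CCAAT. The core of the TATA box was searched as the letters TATAA. The windows are chr6:5193897-5194196 for Pon1, chr6:5256184-5256483 for Pon3 and chr6:5298291-5298590 for Pon2.
Pon1: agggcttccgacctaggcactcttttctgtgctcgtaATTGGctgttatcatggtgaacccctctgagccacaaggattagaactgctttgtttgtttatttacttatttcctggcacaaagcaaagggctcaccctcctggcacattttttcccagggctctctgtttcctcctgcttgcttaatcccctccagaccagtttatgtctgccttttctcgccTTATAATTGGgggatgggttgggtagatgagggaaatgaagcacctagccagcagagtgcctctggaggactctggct
Pon3: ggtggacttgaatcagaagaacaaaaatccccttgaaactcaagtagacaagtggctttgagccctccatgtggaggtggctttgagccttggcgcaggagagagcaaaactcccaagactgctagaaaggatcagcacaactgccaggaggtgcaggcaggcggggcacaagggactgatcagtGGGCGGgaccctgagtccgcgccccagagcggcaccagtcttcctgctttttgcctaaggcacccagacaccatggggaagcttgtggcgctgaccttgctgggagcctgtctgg
Pon2: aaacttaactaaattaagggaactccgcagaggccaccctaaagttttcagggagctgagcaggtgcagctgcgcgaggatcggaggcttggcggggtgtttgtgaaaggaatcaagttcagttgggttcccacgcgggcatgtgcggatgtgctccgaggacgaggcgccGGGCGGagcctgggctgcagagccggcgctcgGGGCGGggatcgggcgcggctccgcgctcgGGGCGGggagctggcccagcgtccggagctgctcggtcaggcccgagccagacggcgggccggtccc

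The Pon1 window held TATAA at position -27 from the start, with an overlapping match on the opposite strand at -28, and CCAAT on the opposite strand at -23, overlapping the TATAA by a base, and at -213. It held no GC box. The Pon2 window held 3 GC boxes, at -79, -47 and -17, and the Pon3 window held 1, at -65, and neither held CCAAT or TATAA. The Pon1 window had 3 CpG dinucleotides and 49.3% G and C bases, the Pon3 window 7 and 57.7%, and the Pon2 window 31 and 67.7%. Across the 32851 windows of the same length in the RefSeq table, 35.7% held a GC box, 37.4% CCAAT and 24.9% TATAA, and the median CpG count was 7. A match is a string of letters, not a measured binding site, and no measurement on these arrays bears on factor binding at these windows.

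Signals are linear MAS5 values, and every array had a 2% trimmed mean of about 1500. Median signals ran from 421 to 464 in the bitransgenic lungs and from 415 to 460 in the controls, and were 541 in E11.5 lung and 545 in E11.5 trachea. Differences are given as bitransgenic minus control on the log2(signal + 86) scale, where 86, the 20th percentile of the E18.5 table, is added to damp noise near background. Mia, the overexpressed gene, read 31399, 42666 and 41546 in the bitransgenic lungs, against 1071, 1070.5 and 734 in the controls, as labelled. The 3' to 5' signal ratio of Actb, a sign of RNA quality, was 1.65, 1.51 and 1.61 in the bitransgenic arrays and 1.501, 1.47 and 1.28 in the controls. That ratio moved with the group, and its part in the results was not tested. Differences of the paraoxonase genes, those whose sign turned and those whose call was lost are therefore also given from a fit that held it as a covariate, called the Actb-adjusted fit.

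Pon1, the paraoxon-hydrolysing enzyme, had the largest difference of the family. Its probe set 1418190_at read 289, 672 and 356 in the bitransgenic lungs, against 3554, 5293 and 3208 in the controls. The groups did not overlap, and the highest bitransgenic array lay far below the lowest control. The means were 439 ± 205 (SD, n = 3) in bitransgenic lungs and 4019 ± 1118 (SD, n = 3) in controls, so that the bitransgenic mean was 0.109 of the control mean. The log2 difference was -3.00 (SE 0.28), and -2.90 in the Actb-adjusted fit. In rank it was the 6th most negative of 12625 genes tested. Within its array the probe set stood at percentiles 42.7, 58.6 and 44.3 in the bitransgenic lungs and at 86.5, 90.8 and 84.9 in the controls. In whole tissue, fewer cells that make a transcript and less of it per cell cannot be told apart.

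Pon3 differed far less. Probe set 1419298_at read 2139, 2803 and 3347 in the bitransgenic lungs, against 3117, 3839 and 4246 in the controls. The ranges overlapped, since the highest bitransgenic array exceeded the lowest control. The means were 2763 ± 605 (SD, n = 3) in bitransgenic lungs and 3734 ± 572 (SD, n = 3) in controls, a log2 difference of -0.43 (SE 0.19). In the Actb-adjusted fit it was -0.18, and without bitransgenic 1 it was -0.27.

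Pon2, the intracellular member, was measured by 4 probe sets, whose differences varied in size. The probe set with the highest signal, 1429019_s_at, whose suffix marks probes that can match more than 1 transcript, read 4382, 4879 and 4327 in the bitransgenic lungs, against 4970, 5336 and 4688 in the controls. The ranges overlapped, and the log2 difference was -0.14 (SE 0.13), from means of 4529 ± 304 in bitransgenic lungs and 4998 ± 325 in controls (SD, n = 3 each). The Actb-adjusted value was -0.16. This probe set represents the gene in the comparisons below.

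The second Pon2 probe set by signal, 1450686_at, read 2185, 2519 and 1313 in the bitransgenic lungs, against 2504, 3120 and 3963 in the controls. Bitransgenic 3 was the lowest array, and the ranges met where bitransgenic 2 just exceeded control 1. Its log2 difference was -0.67 (SE 0.25), and -0.21 in the Actb-adjusted fit. Probe set 1425791_at read 301, 358 and 423 in the bitransgenic lungs, against 460.0, 491 and 499 in the controls. These groups did not overlap, with a log2 difference of -0.36 (SE 0.21), or -0.29 Actb-adjusted. The dimmest probe set, 1429020_at, read 233, 171 and 217 in the bitransgenic lungs, against 217, 262 and 244 in the controls. It was below the signal filter and its groups overlapped (log2 difference -0.16, SE 0.23, or -0.23 Actb-adjusted). The 4 probe sets thus all had lower bitransgenic means, with log2 differences from -0.67 to -0.14.

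**Figure D1:**
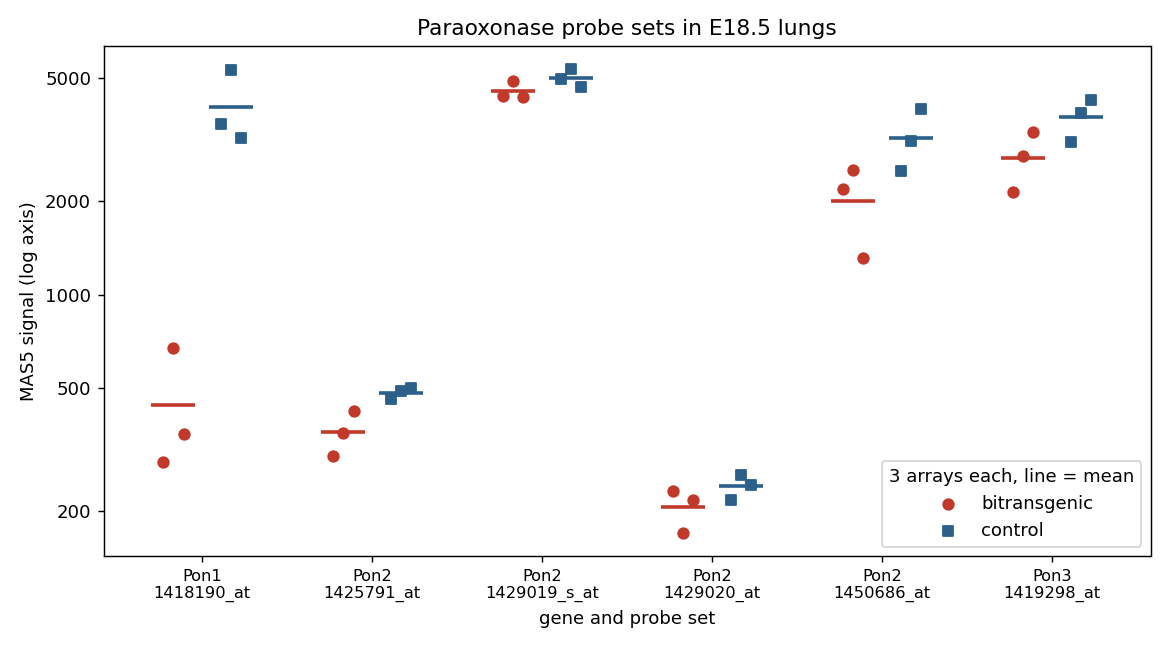
MAS5 signal on a log axis for the 6 paraoxonase probe sets in E18.5 lungs, with 1 point per array and a line at the mean of each group of 3. The bitransgenic arrays of Pon1 sit between 289 and 672 and its controls between 3208 and 5293, while the groups of Pon3 and of 3 of the 4 Pon2 probe sets overlap. Levels of different probe sets cannot be set against each other.

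All 6 probe sets had lower bitransgenic than control means, and in 2 of the 6, those of Pon1 and 1425791_at of Pon2, every bitransgenic array lay below every control. Among the 22593 named probe sets past the signal filter, 7.81% had all bitransgenic arrays below all controls. In the fit across all genes (limma, Benjamini-Hochberg adjustment, threshold 0.05) 0.673% of genes passed, and 0.436% passed towards lower signal. Of the 3 paraoxonases 1, Pon1, was among them, but it was chosen by this contrast and nothing is read from that count.

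None of the measured genes beside the cluster fell as far as Pon1, which was chosen for its fall. Few genes of any kind did. Among all 12625 tested, Pon1 was the 6th most negative and the 1st percentile of log2 differences was -0.82. Of 13 neighbours on chromosome 6, 7 had enough signal to be tested, and in limma none rose and none fell after adjustment, with 1 at an unadjusted p under 0.05. Ppp1r9a, the neuronal actin-binding protein gene that directly precedes Pon1 in order, averaged 12795 ± 738 in bitransgenic lungs and 13641 ± 651 in controls (SD, n = 3 each), a log2 difference of -0.09 (SE 0.11, limma adjusted p = 0.859). On the other side, past Pon3, Pon2 and the low-signal gene Asb4 (228 ± 14.8 in bitransgenic lungs and 269 ± 51.2 in controls, SD, n = 3 each), lies Pdk4, which encodes a kinase that restrains pyruvate oxidation. Pdk4 averaged 1055 ± 172 in bitransgenic lungs and 1539.9 ± 171 in controls (SD, n = 3 each), with a log2 difference of -0.52 (SE 0.16, limma adjusted p = 0.314). Its groups did not overlap, and it was the neighbour at an unadjusted p under 0.05.

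Farther out, no tested neighbour had an unadjusted p under 0.05. Casd1, a sialic acid acetyltransferase gene, had a log2 difference of -0.10 (SE 0.20), the sarcoglycan gene Sgce one of -0.10 (SE 0.12), and the proteasome subunit gene Sem1 one of -0.07 (SE 0.11). Slc25a13, a mitochondrial aspartate-glutamate carrier, had 0.20 (SE 0.25), and Sdhaf3, an assembly factor of succinate dehydrogenase, had 0.39 (SE 0.25), which the Actb-adjusted fit brought to -0.0044. Limma adjusted p-values of these 5 genes ran from 0.701 to 0.922. Peg10, Dync1i1, Dlx6, Dlx5 and Tac1 were below the filter, with group means between 35.3 and 198.

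**Figure D2:**
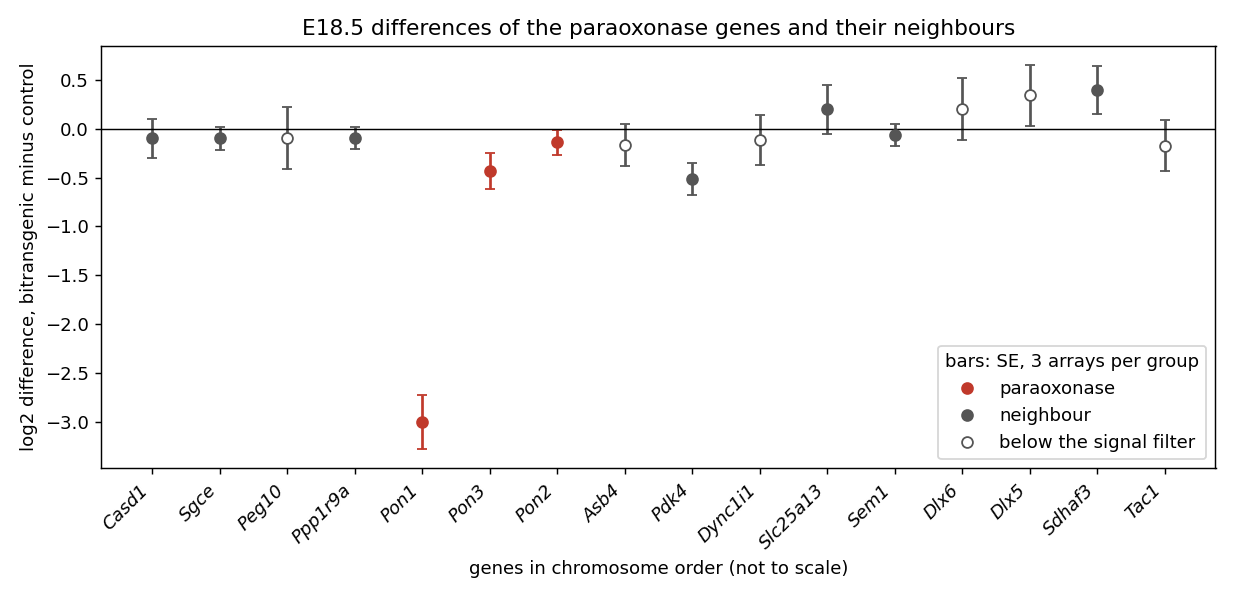
Log2 difference (bitransgenic minus control, with SE, 3 arrays per group) of the 3 paraoxonase genes and 13 neighbours in their order along chromosome 6, not to scale. Pon1 stands at -3.00, and the other 15 genes lie between -0.52 and 0.39.

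Genes whose products work with or beside paraoxonases were examined in 4 further lists, of HDL proteins and HDL metabolism, antioxidant enzymes, other esterases and hydrolases, and transcriptional regulators tied to Pon1. With the neighbours these held 107 genes, 97 on the array and 69 past the filter. None of the 69 passed the adjusted threshold in limma, against 0.673% of all genes tested. An unadjusted p under 0.05 was found for 15 of the 69 (14 lower and 1 higher). Of all 12625 genes it was found for 1223 (9.69%), 651 lower and 572 higher. In simulated data the fit recovered 12.2% of 1.5-fold and 55.8% of 2-fold changes, so a gene that did not pass may still differ. The simulation shuffled the spreads among genes, so these shares are averages and not those of any listed gene. The median log2 difference over the 69 was -0.10, and over all 12625 genes it was 0.01.

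In the HDL list none of 13 tested genes passed, 3 were lower at an unadjusted p under 0.05, and the median was -0.15. Scarb1, the receptor that takes up HDL cholesterol, averaged 4471 ± 187 in bitransgenic lungs and 5931 ± 1228 in controls (SD, n = 3 each), with all bitransgenic arrays below the controls (log2 difference -0.38, SE 0.16, limma adjusted p = 0.482). Its Actb-adjusted value was -0.12. Abca1, the exporter that loads cholesterol onto HDL, had -0.06 (SE 0.11), Apoe, an apolipoprotein of HDL and other particles, had -0.12 (SE 0.15), and Clu, which encodes apolipoprotein J, had 0.09 (SE 0.21). The sign of Clu turned in the Actb-adjusted fit (-0.38), as did that of the lipoprotein lipase gene Lpl (0.24, SE 0.16, and -0.15 adjusted). Apoa1, the main protein of HDL, was below the filter at 122 ± 12.7 in bitransgenic lungs and 86.3 ± 46.2 in controls (SD, n = 3 each).

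None of 22 antioxidant enzyme genes passed, 4 were lower at an unadjusted p under 0.05, and the median was -0.10. Gpx3, the secreted glutathione peroxidase, read 15476, 19924 and 11322 in the bitransgenic lungs, against 20611, 22611 and 26929 in the controls. The groups did not overlap, with a log2 difference of -0.61 (SE 0.20, limma adjusted p = 0.32). Its Actb-adjusted value was -0.24. Cat, the catalase gene, had a log2 difference of -0.22 (SE 0.14) and the quinone reductase gene Nqo1 one of 0.16 (SE 0.20). Sod3, the extracellular superoxide dismutase, was below the filter at 243 ± 75.3 in bitransgenic lungs and 241 ± 139.6 in controls (SD, n = 3 each).

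Among other esterases and hydrolases none of 11 tested genes passed, 2 were lower and 1 higher at an unadjusted p under 0.05, and the median was -0.07. The epoxide hydrolase genes Ephx1 and Ephx2 had log2 differences of -0.07 (SE 0.14) and -0.14 (SE 0.21), the butyrylcholinesterase gene Bche had 0.04 (SE 0.22), and the carboxylesterase gene Ces1d had 0.32 (SE 0.19), or -0.09 Actb-adjusted. Ces1g and the arylacetamide deacetylase gene Aadac were below the filter. The smallest adjusted p of the 69 related genes belonged to Notum, the hydrolase that inactivates Wnt proteins, which was named after its values were seen. Notum read 521, 610.0 and 739 in the bitransgenic lungs, against 1191, 1185.0 and 1153 in the controls, without overlap (log2 difference -0.84, SE 0.17, limma adjusted p = 0.0687). Notum passed in 1 of 16 alternative fits, the one that averaged a gene's probe sets.

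Of 16 tested regulators none passed, 4 were lower at an unadjusted p under 0.05, and the median was -0.13. Ahr, the aryl hydrocarbon receptor, read 15725, 15424 and 13748 in the bitransgenic lungs, against 19528, 23408 and 19595 in the controls, without overlap (log2 difference -0.47, SE 0.12, limma adjusted p = 0.176). Srebf1, a regulator of lipid synthesis genes, also had groups that did not overlap, with a log2 difference of -0.31 (SE 0.12, limma adjusted p = 0.412). The zinc finger factor gene Sp1 had all bitransgenic arrays above the controls, with a log2 difference of 0.14 (SE 0.11, limma adjusted p = 0.762), or 0.04 Actb-adjusted. Nfe2l2, which drives antioxidant genes, had 0.05 (SE 0.11), and Pparg, a nuclear receptor of lipid metabolism, had 0.04 (SE 0.41, control arrays from 125 to 661).

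**Figure D3:**
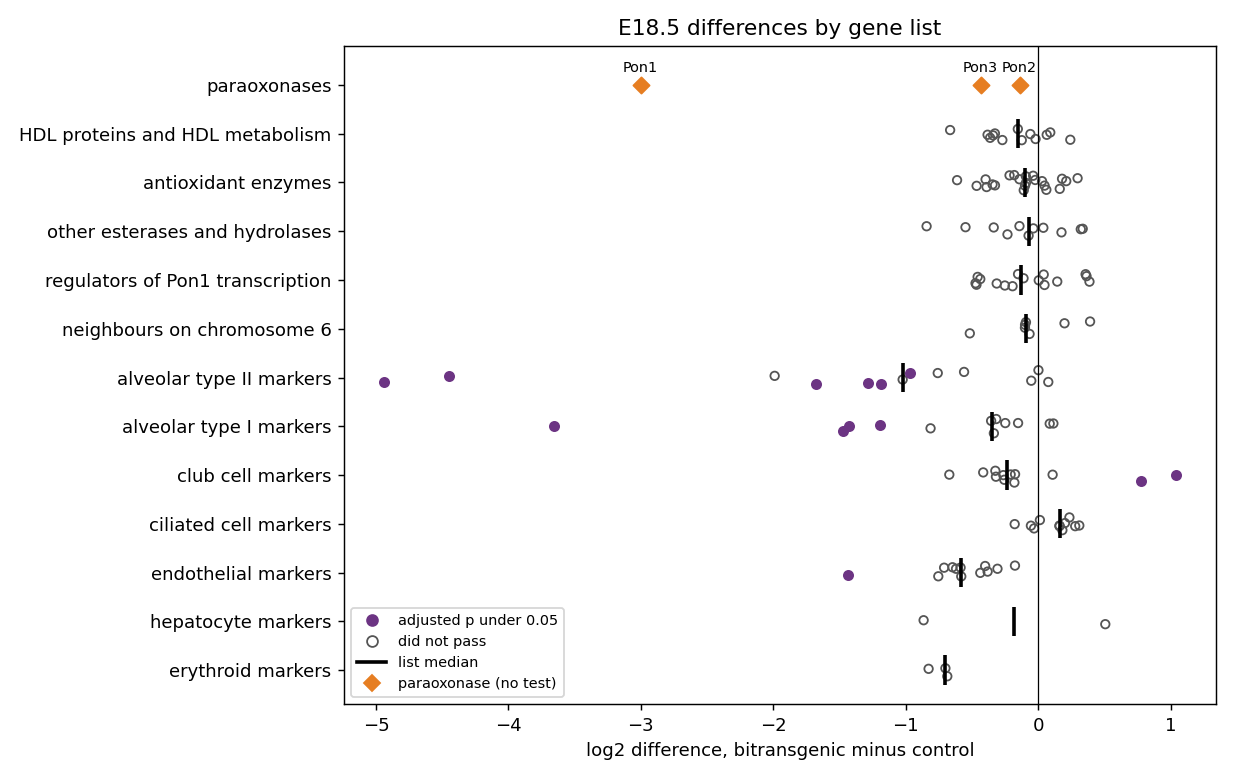
Log2 difference (bitransgenic minus control) of each tested gene, by list, with filled points past the adjusted threshold and a bar at the list median. The paraoxonases are diamonds without a test. No gene of the 5 lists related to paraoxonases passed, and Pon1, at -3.00, lies beyond their lowest value, -0.84.

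Markers of several cell types moved with the group in which Pon1 was low. Of all 12625 genes tested, 55 were lower and 30 higher past the adjusted threshold. At an unadjusted p under 0.05 in limma, 651 were lower and 572 higher. Of 13 alveolar type II markers 6 fell and none rose past the adjusted threshold, and 10 were lower and 0 higher unadjusted. Their summed signal was 194244 to 247845 in the bitransgenic arrays and 415238 to 463366 in the controls. Of 12 alveolar type I markers 4 fell and none rose, and 8 were lower and 0 higher unadjusted. Their sums were 199575 to 223213 in the bitransgenic arrays and 264237 to 276082 in the controls. Of 12 endothelial markers 1 fell, but 10 were lower and 0 higher unadjusted, and all 12 had a negative difference. Their sums were 71552 to 79295 in the bitransgenic arrays and 95510 to 139254 in the controls. Aqp5, the water channel of type I cells, read 311, 348 and 212 in the bitransgenic lungs, against 3179, 4618 and 6593 in the controls. Sftpa1, a surfactant protein gene of type II cells, read 1437, 2170 and 1929 in the bitransgenic lungs, against 41356, 42577 and 40871 in the controls. Its log2 difference was -4.45 (SE 0.15, limma adjusted p = 1.07e-06). Sftpc, by contrast, the type II gene that gave the transgene system its name, had a log2 difference of 0.00 (SE 0.11, limma adjusted p = 0.999). Of the 13 type II markers 11 had a negative difference and 2 a positive one, with a median of -1.02. In the Actb-adjusted fit 3 type II, 1 type I and 0 endothelial markers passed, and with 1 array left out 3 to 7 type II markers (3 without control 2) and 1 to 3 type I markers passed (1 without bitransgenic 1, bitransgenic 3, control 2 or control 3, and 2 without control 1). With no intensity trend or with no filter 1 type I marker passed, and with median centring 2. None of these markers was at 0, and their part in the Pon1 difference was not tested.

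Of 12 club cell markers 2 rose and none fell past the adjusted threshold. Yet 9 of the 12 had a negative difference and 3 a positive one, with a median of -0.23. At an unadjusted p under 0.05 in limma 4 were lower and 2 higher. Their sums were 199944 to 227651 in the bitransgenic arrays and 217058 to 264717 in the controls. The count of markers that rose past the adjusted threshold was 0 in the Actb-adjusted fit and without bitransgenic 1, bitransgenic 3 or control 2. It was 1 without bitransgenic 2 or control 1, with no intensity trend or with no filter. For Scgb1a1, which encodes the secretory protein of club cells, the log2 difference was -0.42 (SE 0.11, limma adjusted p = 0.185). None of 11 tested ciliated cell markers passed and none had an unadjusted p under 0.05 in limma. Over the 12 on the array, the sums were 20772 to 22013 in the bitransgenic arrays and 19100 to 21134 in the controls. None of 3 erythroid markers passed in limma, 2 were lower at an unadjusted p under 0.05, and 1 passed, lower, without control 3. Over the 5 erythroid markers on the array, tested or not, the sums were 8356 to 11139 in the bitransgenic arrays and 14319 to 17393 in the controls. The part of blood content in the Pon1 difference was not tested.

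Since liver is the main source of PON1, hepatocyte markers were set beside it. Of 16 on the array 2 were past the filter, neither passed and neither had an unadjusted p under 0.05 in limma, and the summed signal of the list was 1428 to 2719 in the bitransgenic arrays and 2010.5 to 3438 in the controls. Alb, the albumin gene, read 234, 205 and 473 in the bitransgenic lungs, against 317, 405 and 1506 in the controls (log2 difference -0.86, SE 0.48, and 0.13 Actb-adjusted). Hpx, the hemopexin gene and the other one past the filter, read 315, 239 and 413 in the bitransgenic lungs, against 82.9, 304 and 258 in the controls (log2 difference 0.51, SE 0.34). Its groups overlapped, and its difference had the opposite sign to that of Alb. Afp, the alpha-fetoprotein gene, read 69.3, 12.7 and 61.8 in the bitransgenic lungs, against 33.0, 158 and 306 in the controls. Ttr, the transthyretin gene, read 118, 47.6 and 143 in the bitransgenic lungs, against 58.0, 60.3 and 229.9 in the controls. Afp and Ttr were below the filter. The part of liver RNA in the Pon1 difference was not tested.

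The genes whose profile over the 6 E18.5 arrays was most like that of Pon1 were ranked by Pearson's r on the log2 scale among 12624 genes past the filter. This is a description over 6 arrays that share the difference between the groups, and 86 genes had r above 0.95. The first 6 were Col4a4 (r = 0.998), Gjb6 (0.998), Itgb6 (0.995), Pdpn (0.992), St3gal6 (0.992) and D630004K10Rik (0.992). Once each gene's group means were removed, their r with Pon1 ran from 0.846 to 0.982, over arrays in which bitransgenic 2 and control 2 were the highest of their group for Pon1. The genes were picked by r over the same arrays, so high values within groups were in part set by that choice. Nothing further is read from them.

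These 6 genes were chosen for profiles like that of Pon1, over arrays that share the group difference. Their adjusted p-values are therefore a description and not a test of that difference. Gjb6, which encodes the gap junction protein connexin 30, came nearest to Pon1 in size of difference among these 6. It read 163, 317 and 177 in the bitransgenic lungs, against 1052, 1592 and 938 in the controls (log2 difference -2.07, SE 0.26, limma adjusted p = 0.00801). Gjb6 did not pass in the Actb-adjusted fit (adjusted p = 0.157), without bitransgenic 3 (0.0539) or without control 2 (0.0541). Pdpn, a surface glycoprotein of type I cells, read 14604, 16439 and 15537 in the bitransgenic lungs, against 19283, 20668 and 19659 in the controls, without overlap (log2 difference -0.36, SE 0.11, limma adjusted p = 0.283). Col4a4, a basement membrane collagen chain, and Itgb6, the integrin subunit of injured and developing epithelium, had log2 differences of -0.41 (SE 0.11, limma adjusted p = 0.188) and -0.71 (SE 0.15, limma adjusted p = 0.0844). St3gal6, a sialyltransferase gene, had -0.70 (limma adjusted p = 0.0623), or -0.38 when its probe sets were averaged, and D630004K10Rik, known by a clone name, had -0.998 (limma adjusted p = 0.0254). D630004K10Rik did not pass in the Actb-adjusted fit (adjusted p = 0.215), with no filter (0.0677) or in 5 of the 6 fits that left out an array, the exception being the one without control 3 (0.0183).

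**Figure D4:**
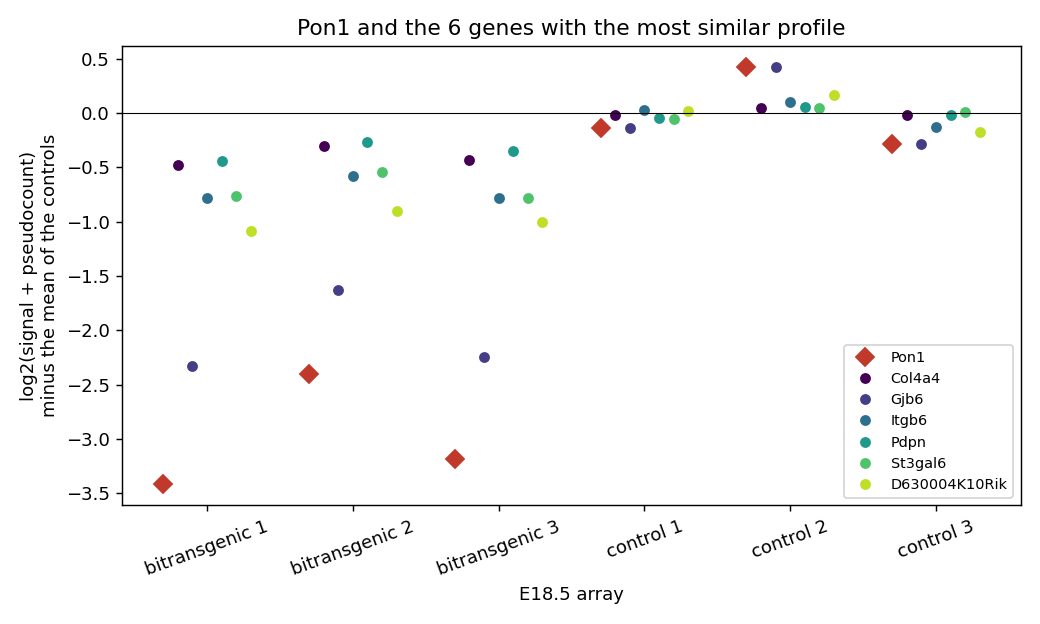
Log2(signal + 86) minus the mean of the controls for Pon1 (diamonds) and the 6 genes with the highest Pearson r to it, in each of the 6 E18.5 arrays. All 7 genes are lowest in bitransgenic arrays and highest in control 2, and Gjb6 comes closest to Pon1 in size.

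The profiles nearest to the other members were those of different genes. For Pon2 they were Plcl2 (r = 0.978), Mark3 (0.977) and Nr1h4 (0.972), out of 18 genes with r above 0.95. Nr1h4 encodes the bile acid receptor FXR and is also on the list of regulators tied to Pon1. It read 162 to 376 over the 6 arrays, under the E18.5 median signal of 434, and a link to Pon2 was not tested. For Pon3 they were Peak1 (r = 0.997), Nradd (0.995) and Shisa7 (0.986). None of these 6 genes passed the adjusted threshold, with log2 differences between -0.56 and -0.14 and limma adjusted p-values from 0.578 to 0.82. They too were chosen by profile over the same arrays, to be like members that differed little. Their p-values are therefore a description and not a test, and nothing is read from none having passed.

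The E11.5 lung and trachea had 1 array each, so no test was possible. Pon1 read 53.5 in lung and 26.7 in trachea, percentiles 14.5 and 7.46 of those arrays. Both values lie below 84, the 20th percentile that serves as the pseudocount of this table, so no ratio is given. Pon3 read 220.1 in lung and 197 in trachea, a log2 ratio of 0.11 on the log2(signal + 84) scale. Pon2 read 723 in lung and 752 in trachea, a log2 ratio of -0.05.

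Of the 3 genes 1, Pon2, had its higher E11.5 signal above the table's median of 543 and could be counted, and it was not over 2-fold apart. Over 2-fold differences made up 3.55% of the 5121 genes counted in this way. Of the related genes, Clu exceeded 2-fold, with 869 in lung and 377 in trachea, a log2 ratio of 1.05. Apoe read 4776 in lung and 2615 in trachea (0.85), Abca1 read 1911 in lung and 3541 in trachea (-0.86), and Gpx3 read 2096 in lung and 3036 in trachea (-0.52). None of 19 antioxidant, 4 esterase, 8 regulator and 4 neighbouring genes counted was over 2-fold apart.

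Levels at the 2 ages come from different array types with different probes, so they are given side by side without a comparison. As a percentile within its own array, the Pon1 probe set stood at 14.5 in E11.5 lung, at 42.7 to 58.6 in E18.5 bitransgenic lungs and at 84.9 to 90.8 in E18.5 controls. The Pon3 probe set stood at 33.8 in E11.5 lung, at 79.0 to 85.6 in bitransgenic lungs and at 84.8 to 88.6 in controls. The Pon2 probe set stood at 56.0 in E11.5 lung, at 88.8 to 89.9 in bitransgenic lungs and at 89.8 to 90.9 in controls.

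**Figure D5:**
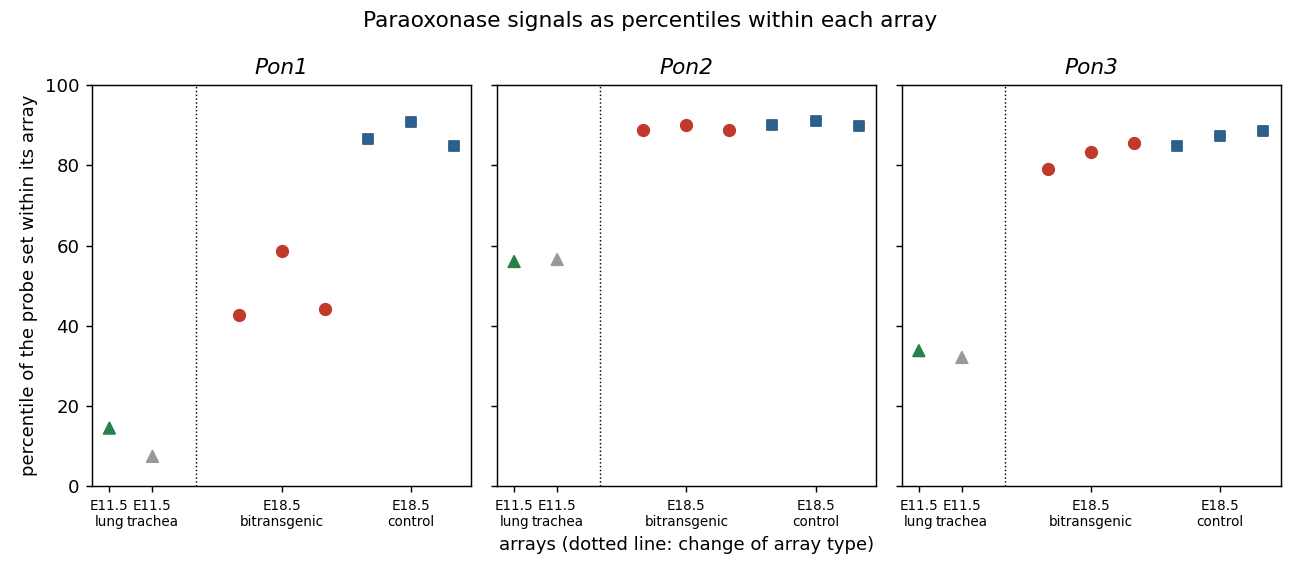
Percentile of each gene's probe set within its array, for E11.5 lung and trachea (1 array each, left of the dotted line) and E18.5 bitransgenic and control lungs (3 arrays each), on different array types. Pon1 lies at 42.7 to 58.6 in the bitransgenic lungs, below its controls at 84.9 to 90.8, while the percentiles of Pon2 and Pon3 overlap between the E18.5 groups.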

How the data were processed

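The authors deposited 1 table for each array type, with a linear intensity (signal) for each probe set and array, made with MAS5 per the submitters' processing notes, version not given in the sources used here. The scaling to a 2% trimmed mean of 1500 was read from the values. Control probe sets were left out (64 and 66). Gene names came from the platform annotation. At E18.5 34945 of 45037 probe sets had 1 symbol, 932 several and 9160 none. At E11.5 10833 of 12422 had 1 symbol, 396 several and 1193 none.

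Values were analysed as log2(signal + pseudocount), with 86 at E18.5 and 84 at E11.5. For each gene the probe set of highest mean was used, and genes under the 40th percentile were dropped (12625 remained). Limma 3.58.1 in R 4.3.3 compared the groups (lmFit, and eBayes with an intensity trend), two-sided, with Benjamini-Hochberg adjustment over all genes tested. An exact permutation of 3 against 3 arrays cannot go below p = 0.1. SEs of probe sets that do not represent their gene come from the same fit over all probe sets, and those of neighbours below the filter from a fit without the filter. Alternatives changed the scaling, pseudocount, filter, probe set rule, variance model, covariate and arrays, 1 at a time. The fit was tested on simulated data in 10 runs, with spreads shuffled among genes, so spread did not follow signal. It recovered 12.2% of 1.5-fold changes, 55.8% of 2-fold, 91.2% of 4-fold and 98.6% of 8-fold changes. Figures were drawn with matplotlib 3.10.9.

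The members, gene lists and tests were chosen with earlier results of these data known. Named genes were the 3 members with all probe sets, genes from fixed sets of related and marker genes, and all neighbours measured. The genes with the highest r to each member (6 for Pon1, 3 each for the others) were named too. Cyp2f2, Foxj1, Pecam1 and Alas2 were in the fixed marker set and on the array but are not described singly. Notum and Hpx lay outside the fixed sets. Sequences are RefSeq's. Replicates were numbered in accession order, and no number pairs the groups.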

Additional observations from a re-analysis of the deposited data

How the results depend on the processing

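The number of arrays limits the precision of every value. The E18.5 differences of Pon1, Pon2 and Pon3 stayed negative with median centring, quantile normalization, no pseudocount or a larger one, the mean of the probe sets, no intensity trend, the Actb ratio as a covariate, and each array left out. They were not recomputed for the other filters or for single probe sets. Pon1 was -2.48 when the pseudocount was raised 4 times, and Pon2 was -0.33 with the mean of its probe sets. Leaving out 1 array gave -3.30 to -2.79 for Pon1, -0.19 to -0.09 for Pon2 and -0.58 to -0.27 for Pon3. The count of 85 genes past the adjusted limma threshold was 20 with the Actb ratio as a covariate and ran from 22 (without control 2) to 97 (without control 3) with 1 array left out, and was 41 without bitransgenic 1, 36 without bitransgenic 3 and 57 without bitransgenic 2. The count of related genes past it, 0 in each direction, became 1 lower (Notum) when probe sets were averaged by gene and was 0 in the other 15 fits. At E11.5 both Pon1 signals lie below the pseudocount, so the value computed for it turns on that choice (1.01 on the log2 scale without one) and is not read as a ratio. The log2 ratios of Pon2 and Pon3 moved by less than 0.5 under every alternative tried. The causes of these shifts were not tested. No sample stood in a group of 4 or more, so none was screened as an outlier.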
